A study of Cenococcum geophilum 1.58 with 6 samples.

Results

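The gene nps6 of the ectomycorrhizal ascomycete Cenococcum geophilum, locus tag K441DRAFT_610742, and the 7 genes beside it were described across RNA-Seq libraries of poplar ectomycorrhizal (ECM) root tips and of free-living mycelium (FLM). They are 8 of the 14748 genes in the files. In order along the scaffold they are Cenge3:696264, nps6, Cenge3:636028, Cenge3:687038, Cenge3:696268, Cenge3:659591, Cenge3:636038 and Cenge3:636039, where the number is the JGI protein ID by which the files list a gene (for nps6 the number in its locus tag). The 8 genes were chosen by their position, but with their change between poplar ECM and FLM in these same libraries already known. Their levels and fold changes in that contrast are therefore given as a description, without a test, and nothing is drawn from how many of them moved.

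The poplar ECM libraries, 3 in number, came from root tips of the micropropagated hybrid poplar clone INRA 717-1B4 (Populus tremula x alba) colonised by strain 1.58, and the 3 FLM libraries from pure cultures of the same strain without a host. Both were grown at 25 °C on a medium low in phosphorus and nitrogen and are labelled 60 days, and the ECM dishes held 2 plants each. By the paper, the 60 days of the poplar ECM dishes are the time with the plants. The plants were laid on mycelium that had already grown on the medium. An ECM library is bulk RNA of a mixed plant and fungal organ from which only C. geophilum genes were counted, so the poplar tissue could not be checked by its markers. In such bulk samples more cells with a transcript and more transcript per cell cannot be told apart.

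Siderophores are small molecules that fungi make to bind ferric iron, which is poorly soluble and otherwise out of reach. Many are hydroxamates built from modified ornithine by nonribosomal peptide synthetases, large enzymes that join amino acids without a ribosome. In the maize pathogen Cochliobolus heterostrophus NPS6 makes the siderophores that are released from the cell, and NPS2 makes the ferricrocin that holds iron inside it. In Aspergillus fumigatus the gene of the corresponding enzyme, sidD, lies in a cluster with other genes of siderophore synthesis and transport. The annotation used here names nps6 but gives no name to the 7 neighbours, so none of them is assigned a role.

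The 8 genes lay next to each other with no other annotated protein-coding gene between them. Only protein-coding genes were placed in order, so other kinds of gene were not looked for. They spanned bases 1152841 to 1172844 of their scaffold in genome version 2.0, and the annotation at hand does not name the scaffold. Of these 20004 bp 86.3% lay within an annotated protein-coding gene. nps6 ran from 1154365 to 1161013, and its 6649 bp made up 33.2% of the run. The other genes were between 1210 bp (Cenge3:659591) and 2307 bp (Cenge3:696268) long. The gaps between neighbours were short, from 175 bp between Cenge3:696268 and Cenge3:659591 to 757 bp between Cenge3:636028 and Cenge3:687038, with a median of 346 bp, against a median of 1032 bp over all 14546 gaps between protein-coding genes.

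The run stood at one edge of a denser stretch. On the side of Cenge3:696264 no protein-coding gene was annotated over 75580 bp, a distance reached by 3.36% of all gaps. Such stretches without a protein-coding gene are called empty here. On the other side 5 more genes followed Cenge3:636039 at short distances, the first of them 360 bp away, before an empty stretch of 47557 bp. This made a block of 13 genes over 28.9 kb.

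**Figure D1:**
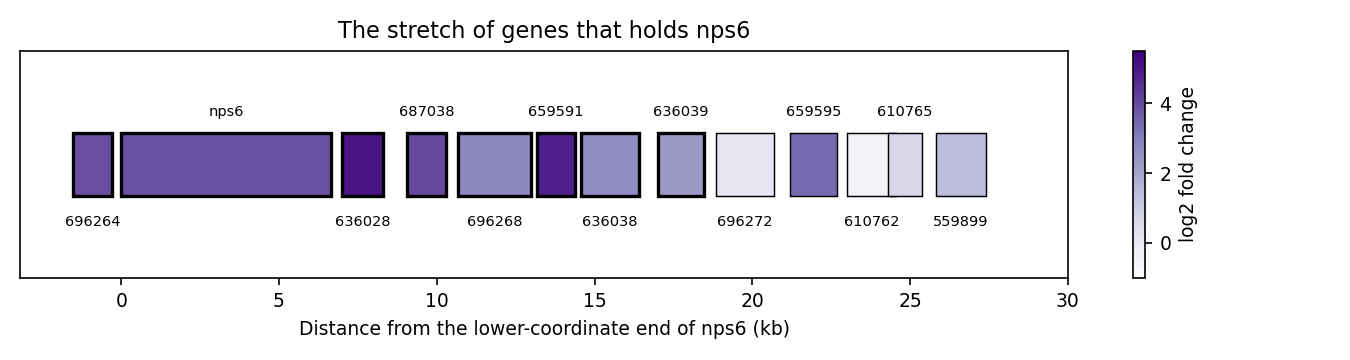
Map of the 13 genes between the 2 empty stretches, as the annotated start and end of each gene in kb from the lower-coordinate end of nps6. Shading gives the log2 fold change in poplar ECM over FLM, thick outlines mark nps6 and its 7 neighbours, and the darkest genes are 636028 and 659591, at 5.08 and 4.86.

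The libraries differed in depth. Total counts ran from 11197509 to 14396613 in poplar ECM and from 52305281 to 54586073 in FLM, 3.83 times as many at the median. The share of counts held by the 10 most abundant genes was 7.61% to 19.9% in poplar ECM and 4.12% to 4.89% in FLM. Poplar ECM replicates 2 and 3 were sequenced on a HiSeq 2500, against a HiSeq 2000 for replicate 1 and for the FLM libraries. The 8 genes together took 0.0652%, 0.0880% and 0.0640% of all counts in poplar ECM replicates 1, 2 and 3, against 0.0112%, 0.0101% and 0.00892% in FLM replicates 1, 2 and 3. All 8 had at least 34 counts in every library, so that none rests on counts near 0.

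Levels are given below as the deposited FPKM (fragments per kilobase and 1000000 counts), which are scaled for gene length. They divide by the whole length of the annotated gene, any introns included. Levels of different genes, their order and their ratios are therefore compared only approximately. Fold changes come from edgeR on the raw counts with TMM normalization, which scales libraries so that a few very abundant genes weigh less, and each carries a standard error derived from the test.

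nps6 was low in FLM and steady within each group. It had 8.05, 7.80 and 9.04 FPKM in poplar ECM replicates 1, 2 and 3, against 0.72, 0.72 and 0.69 FPKM in FLM replicates 1, 2 and 3. All FLM values lay under the 1 FPKM that the study took as the limit of expression, and all poplar ECM values lay above it. The counts behind them were 771, 726 and 673 in poplar ECM, and 256, 262 and 241 in the deeper FLM libraries. The groups did not overlap, and the log2 fold change was 3.89 (standard error 0.165), a 14.8-fold higher normalized count in poplar ECM. Even in poplar ECM nps6 was no abundant transcript, since 38.2% of all genes had a lower mean FPKM there, against 16.2% in FLM. Of the 8 genes it varied least between the poplar ECM libraries, with a highest normalized count 1.12 times the lowest.

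On one side of nps6, 298 bp away, Cenge3:696264 had 76.8, 98.4 and 62.3 FPKM in poplar ECM, against 7.38, 8.08 and 4.57 FPKM in FLM. Its log2 fold change of 3.94 (standard error 0.284) was close to that of nps6. In FPKM it was lowest in replicate 3 of both groups, whereas nps6 was highest in poplar ECM replicate 3 and lowest in FLM replicate 3. The counts were 1355, 1688 and 855 in poplar ECM and 485, 541 and 293 in FLM.

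On the other side, 346 bp away, Cenge3:636028 was the lowest of the 8 genes in FLM and had the largest fold change of them. It had 14.7, 18.6 and 7.95 FPKM in poplar ECM, against 0.58, 0.47 and 0.52 FPKM in FLM. Its counts were the smallest of the run, 278, 342 and 117 in poplar ECM and 41, 34 and 36 in FLM. The log2 fold change was 5.08 (standard error 0.383), 33.9-fold in normalized counts. It also varied most in poplar ECM, where the highest normalized count was 2.70 times the lowest, which was that of replicate 3.

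Cenge3:687038 was the most abundant of the 8 genes in poplar ECM, with 104, 139 and 116 FPKM, against 9.81, 10.6 and 7.89 FPKM in FLM. These came from 1837, 2378 and 1589 counts in poplar ECM, and from 643, 707 and 505 in FLM. In poplar ECM 92.9% of all genes had a lower mean FPKM, and in FLM 37.7%. Its log2 fold change of 4.02 (standard error 0.201) stood with those of nps6 and Cenge3:696264.

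For Cenge3:659591 the values were 82.7, 118 and 57.0 FPKM in poplar ECM, against 3.90, 3.95 and 3.65 FPKM in FLM. It was thus nearly constant in FLM, but poplar ECM replicate 2 had 2.39 times the normalized count of replicate 3. There were 1441, 1999 and 773 counts in poplar ECM and 253, 261 and 231 in FLM. The log2 fold change of 4.86 (standard error 0.313), 29.0-fold, was the largest but for Cenge3:636028.

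The remaining 3 genes had smaller fold changes. Like every neighbour of nps6 but Cenge3:636028, they were higher in FLM than nps6. Cenge3:696268 had 25.9, 43.6 and 27.3 FPKM in poplar ECM, against 7.13, 6.05 and 5.78 FPKM in FLM, and its log2 fold change was 2.71 (standard error 0.237). Cenge3:636038 had 38.6, 47.0 and 32.4 FPKM in poplar ECM, against 10.7, 8.11 and 6.09 FPKM in FLM, and its log2 fold change was 2.61 (standard error 0.250). In both genes the raw counts of the groups overlapped and only the values scaled for depth stood apart, with 859, 1409 and 706 counts in poplar ECM against 882, 762 and 697 in FLM for Cenge3:696268. For Cenge3:636038 the counts were 1025, 1215 and 669 in poplar ECM and 1062, 817 and 588 in FLM.

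Cenge3:636039, at the far end of the run, was the most abundant of the 8 genes in FLM. Like all of them but nps6 and Cenge3:636028, it stood above 1 FPKM in each FLM library. It had 85.5, 123 and 108 FPKM in poplar ECM, against 30.2, 26.0 and 26.8 FPKM in FLM, and in FLM 62.5% of all genes had a lower mean. Its counts were 1825, 2555 and 1787 in poplar ECM and 2399, 2100 and 2074 in FLM. The log2 fold change of 2.28 (standard error 0.179), 4.84-fold, was the smallest of the 8.

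**Figure D2:**
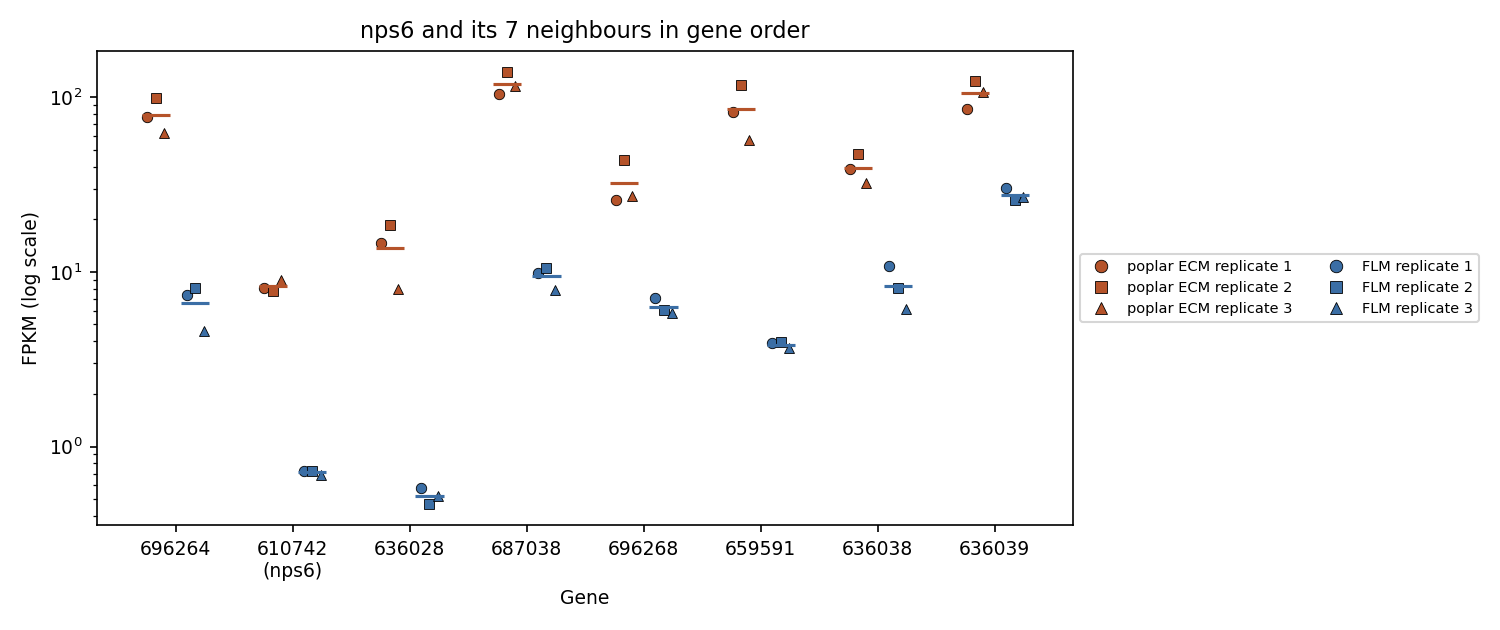
FPKM (log scale) of nps6 and its 7 neighbours in gene order, with 1 point for each library and a bar at the mean of the 3 poplar ECM libraries (left of each pair) and of the 3 FLM libraries (right). In each gene the poplar ECM points lie above the FLM points, with nps6 at 7.80 to 9.04 against 0.69 to 0.72.

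All 8 genes passed the filter on low counts (at least 10 counts in at least 3 libraries), and all 8 were past the study's limits for up-regulation, a log2 fold change over 1 with an adjusted p under 0.05, as were 9.94% of the 12692 genes tested. In normalized counts the lowest poplar ECM library exceeded the highest FLM library in all 8, and in 22.2% of the genes tested. Because the genes were chosen with this contrast known, these counts say nothing beyond that choice. The median log2 fold change of the 8 was 3.91, and that of all genes tested was 0.0097. Down-regulation was called for 3.28% of all genes tested and for 0 of the 8.

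The order of the levels differed between the conditions. From high to low the mean FPKM in poplar ECM ran Cenge3:687038, Cenge3:636039, Cenge3:659591, Cenge3:696264, Cenge3:636038, Cenge3:696268, Cenge3:636028 and nps6. Neighbours in this order did not overlap between Cenge3:696264 and Cenge3:636038 and between Cenge3:696268 and Cenge3:636028, and overlapped elsewhere. In FLM the order was Cenge3:636039, Cenge3:687038, Cenge3:636038, Cenge3:696264, Cenge3:696268, Cenge3:659591, nps6 and Cenge3:636028. There Cenge3:636039 stood clear above the rest. Neighbours in the order overlapped from Cenge3:687038 through Cenge3:696268, and Cenge3:659591, nps6 and Cenge3:636028 were each separated from the gene before.

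Set against nps6 within each library, 2 neighbours kept nearly the same ratio in both conditions. The FPKM of Cenge3:696264 was 9.54, 12.6 and 6.89 times that of nps6 in poplar ECM, and 10.2, 11.2 and 6.62 times in FLM. For Cenge3:687038 the ratio was 13.0, 17.8 and 12.8 in poplar ECM and 13.6, 14.7 and 11.4 in FLM. Cenge3:636039 moved most, with ratios of 10.6, 15.8 and 11.9 in poplar ECM against 42.0, 36.1 and 38.8 in FLM. Cenge3:636028 went the other way, with 1.83, 2.38 and 0.879 in poplar ECM against 0.806, 0.653 and 0.754 in FLM. These ratios do not depend on how the libraries were scaled, since both genes come from the same library.

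The poplar ECM libraries did not rank the 8 genes alike. In normalized counts replicate 2 was highest for the 7 neighbours. Replicate 3 was lowest for 6 of the 8 genes, Cenge3:696264, Cenge3:636028, Cenge3:687038, Cenge3:696268, Cenge3:659591 and Cenge3:636038. The normalized counts of nps6 were highest in replicate 1, at 66.7, and nearly equal in replicates 2 and 3, at 59.8 and 60.0. In the deposited FPKM and TPM nps6 was instead highest in replicate 3. The summed normalized counts of the 8 genes lay between 639 and 1014 CPM (counts per 1000000) in poplar ECM and between 82.3 and 96.7 CPM in FLM. nps6 gave 8.21%, 5.90% and 9.39% of the counts of the run in poplar ECM replicates 1, 2 and 3, against 4.25%, 4.78% and 5.17% in FLM.

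The fold changes depended on the scale more than on any single library. With library totals alone they were between 1.93 (Cenge3:636039) and 4.70 (Cenge3:636028) on the log2 scale, and from the means of the deposited TPM (values scaled to 1000000 in each library) between 1.49 and 4.19 for the same genes. For nps6 the deposited TPM were 7.16, 7.62 and 11.5 in poplar ECM and 1.02, 1.01 and 1.02 in FLM, a log2 ratio of 3.11. The top gene of each library held 27.4%, 17.2% and 8.86% of all TPM in poplar ECM replicates 1, 2 and 3, against at most 2.05% in an FLM library. Whether it was the same gene in each library was not checked. The part of such genes in the lower ratios was not tested. With the sequencer as a term, where the contrast rests on poplar ECM replicate 1 alone, the log2 fold changes lay between 2.12 and 5.28.

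**Figure D3:**
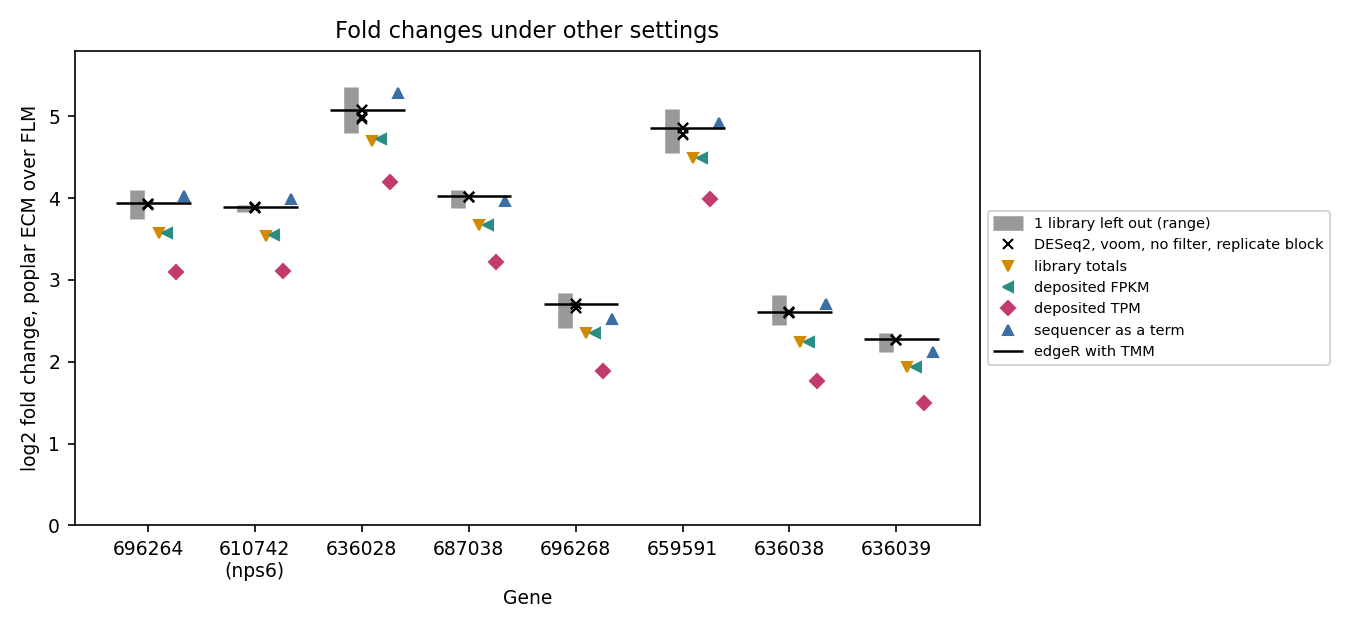
Log2 fold change of each of the 8 genes, poplar ECM over FLM, with edgeR and TMM (black line), over the fits that leave out 1 library (grey bar, lowest to highest) and under the other settings (symbols). Every value lies above 0, and the deposited TPM give the lowest value of each gene, 3.11 for nps6 and 1.49 for 636039.

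Beyond the run the changes were uneven. Directly past Cenge3:636039 the next gene, Cenge3:696272, had 7.13, 7.45 and 12.6 FPKM in poplar ECM, against 10.6, 9.81 and 9.83 FPKM in FLM, so that the groups overlapped, with a log2 fold change of 0.17 (standard error 0.194). One gene further Cenge3:659595 had 47.8, 77.8 and 64.2 FPKM in poplar ECM, against 7.79, 7.77 and 7.02 FPKM in FLM. Its log2 fold change of 3.41 (standard error 0.201) lay within the range of the 8 genes. The last gene before the empty stretch, Cenge3:559899, had 1.44 (standard error 0.168).

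Between them Cenge3:610762 and Cenge3:610765, which overlap by 227 bp and whose reads may therefore be hard to separate, had log2 fold changes of -0.44 and 0.71. In the block of 13 genes 10 were past the limits for up-regulation, as were 9.94% of all genes tested. Of these 10 the choice of the run fixes 8, and the others are Cenge3:659595 and Cenge3:559899. Across the empty stretch on the other side, Cenge3:659579, Cenge3:659578 and Cenge3:705463 had log2 fold changes of 0.92, 0.94 and 0.74, all under the limit, Cenge3:559924 had no counts in any library, and Cenge3:659573 had -1.11. Since the ends of the run were set with the results known, these flanking values were not tested against it.

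**Figure D4:**
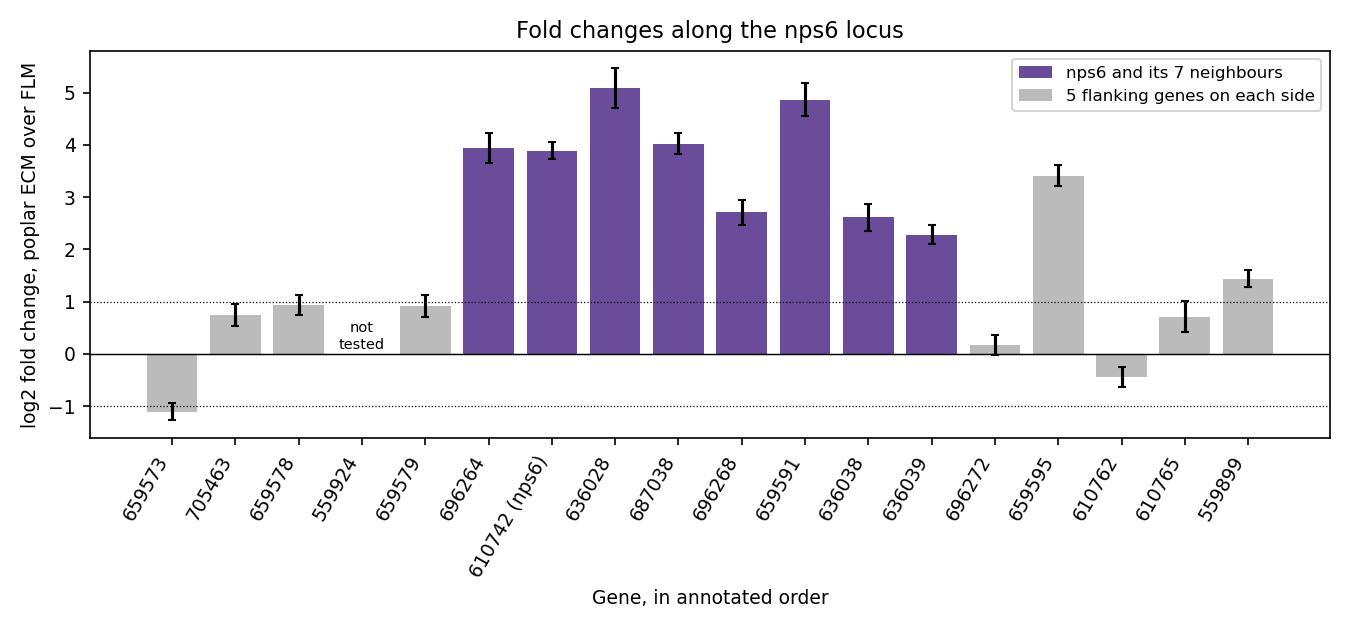
Log2 fold change in poplar ECM over FLM for nps6 and its 7 neighbours (purple) and for the 5 genes on each side (grey) in annotated order, with the standard error, and dotted lines at the study's limit of 1 in size. The 8 genes lie between 2.28 and 5.08, Cenge3:696272 at 0.17 ends the run, and Cenge3:659595 at 3.41 stands beyond it.

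Runs of neighbouring up-regulated genes were counted over the whole annotation as a description. There was 1 run of 8 genes, that of nps6, 1 run of 7, 1 of 6, 2 of 5 and 7 of 4, while 848 up-regulated genes had no up-regulated neighbour. Genes that were not tested or not in the files also ended a run. The run of nps6 was chosen with these calls known, so its place among the runs says nothing beyond that choice.

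The genes most like nps6 in their pattern over the 6 libraries, by Pearson's r in log2 CPM, were Cenge3:698167, Cenge3:680403, Cenge3:688088, Cenge3:644315 and Cenge3:709221, with r between 0.9990 and 0.9994. The first 2 are listed by the study as small secreted proteins. Cenge3:688088 was nearest to nps6 in the size of its change, with 80.8, 78.4 and 99.5 FPKM in poplar ECM against 6.26, 7.31 and 6.08 FPKM in FLM and a log2 fold change of 4.06. The 6 libraries fall into 2 groups, so r mostly measures the difference between the groups, and 180 genes had an r above 0.99. Of the 7 neighbours Cenge3:687038 alone was among them, with 0.996, and the other 6 had between 0.973 and 0.989.

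The other peptide synthetases were set beside nps6 as members of its gene family. The annotation names 12 more by symbol, of which 10 were counted in the files and tested. None of their values entered the choice of the 8 genes. With p-values of edgeR's quasi-likelihood test adjusted over all genes (Benjamini-Hochberg), 1 of the 10 was up-regulated and 1 down-regulated, against 9.94% and 3.28% of all genes tested. Their median log2 fold change was -0.38, against 0.0097 over all genes tested.

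The up-regulated one was nps12 (Cenge3:701851), whose product is not named in the annotation. It had 2.45, 2.28 and 3.59 FPKM in poplar ECM, against 0.12, 0.13 and 0.07 FPKM in FLM, from 438, 396 and 499 counts against 82, 86 and 44. The log2 fold change was 5.04 (standard error 0.268, adjusted p = 6.3e-07, edgeR), with the groups apart. Like nps6 it was under 1 FPKM in each FLM library and above it in each poplar ECM library.

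Its surroundings were read after its values were seen. Of the 5 genes tested within 5 places of nps12 on its scaffold 3 were up-regulated, Cenge3:672208, Cenge3:672209 and Cenge3:672210, side by side, with log2 fold changes of 3.63, 3.32 and 1.77. These 3 lie between nps12 and Cenge3:599087, which had -0.14. The gene on the other side of nps12, named nps9, was not analysed here.

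The down-regulated synthetase was nps5 (Cenge3:633433), with 2.09, 1.99 and 2.21 FPKM in poplar ECM, against 4.71, 5.70 and 6.11 FPKM in FLM. Its log2 fold change was -1.05 (standard error 0.175), with an adjusted p of 0.00177 by edgeR that ranged from 1.1e-06 to 0.0772 over the other fits. This sits at the limit of 1, and the call was lost without FLM replicate 3, at -0.94, and with the sequencer as a term, at -0.91. nps10 (Cenge3:603011) was just short of the limit, at -0.94 (standard error 0.197, adjusted p = 0.00645, edgeR), and was called with library totals (-1.26), without poplar ECM replicate 3 (-1.11) and without FLM replicate 1 (-1.06).

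The gene named nps2 was not called here, and whether it corresponds to NPS2 of Cochliobolus heterostrophus was not checked. It had 13.9, 9.49 and 18.6 FPKM in poplar ECM, against 20.6, 19.2 and 19.8 FPKM in FLM, and its log2 fold change was -0.18 (standard error 0.204; edgeR, adjusted p = 0.546). The FLM level of nps2 was thus far above that of nps6, and the poplar ECM levels of the pair lay closer together. The other 6 synthetases tested (nps1, nps3, nps7, nps8, pks-nrps1 and pks-nrps2) had log2 fold changes between -0.53 and -0.13 and were not called.

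**Figure D5:**
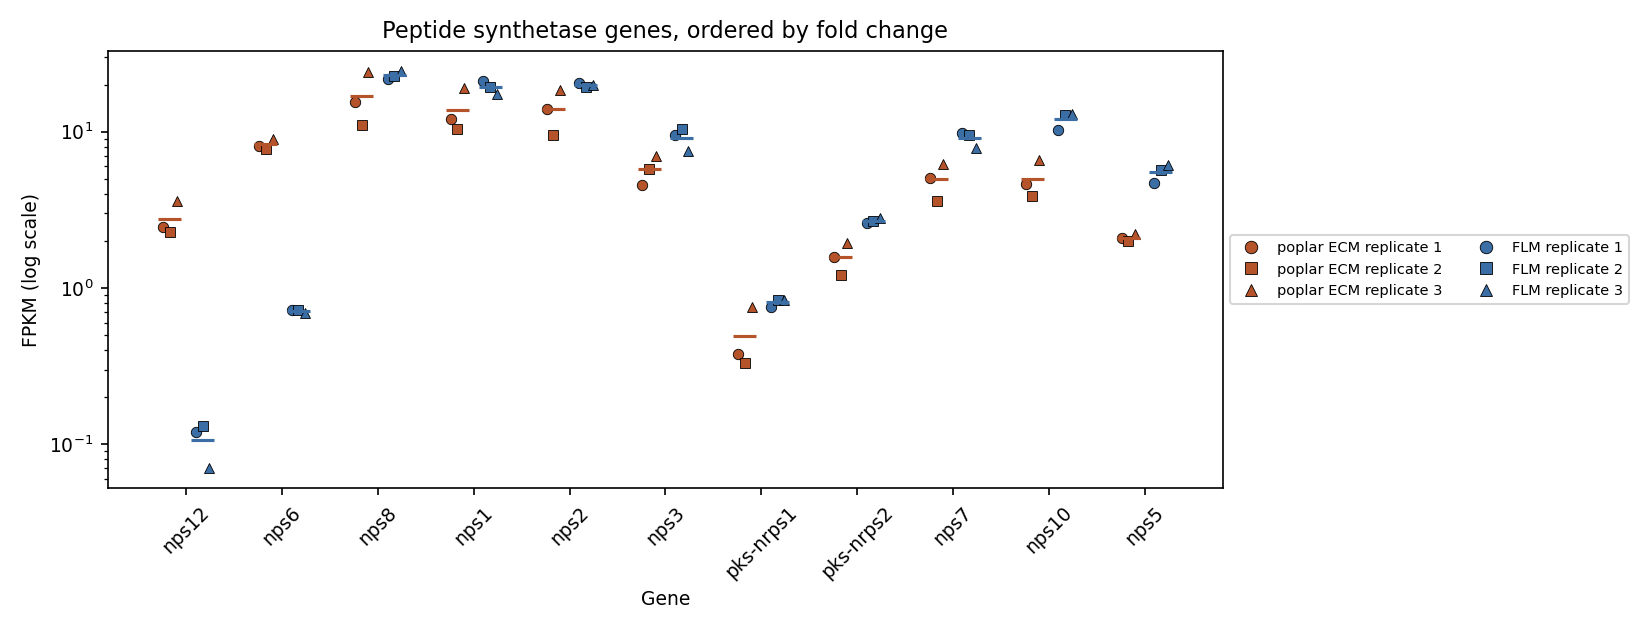
FPKM (log scale) of nps6 and the 10 other peptide synthetase genes in the files, ordered by fold change, with 1 point for each library and a bar at the mean of the poplar ECM (left of each pair) and FLM libraries (right). Only nps12 and nps6 have each poplar ECM library above each FLM library.

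Neighbours of the other synthetases were mostly not called. Within 5 places of nps6 on either side 6 of the 9 genes tested were up-regulated, as the choice of the run largely fixes. Around the 12 other synthetases, with each gene counted once and the synthetases left out, 13 of 83 genes tested (15.7%) were up-regulated and 0 down-regulated, against 9.94% and 3.28% of all genes tested. The difference from these shares was not tested. Of the 13 genes 8 lay within 5 places of nps12 or nps8. nps8 itself was not called, at -0.13, although 5 of the 9 genes tested within 5 places were up-regulated. Of these 5, Cenge3:673732, Cenge3:496922 and Cenge3:652951 lie across an empty stretch of 61557 bp from nps8. Only Cenge3:464537 and Cenge3:684344 are on its own side.

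A list of other genes of iron uptake, storage and regulation, drawn by words in gene names, held 0 genes, because the annotation at hand gives no product names. Other steps of siderophore synthesis and uptake were therefore not analysed here.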

How the data were processed

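RNA-Seq libraries of poplar ECM and FLM, 3 each, were analysed. Reads had been quality-trimmed by the authors and mapped on the transcripts of C. geophilum genome version 2.0 (HISAT 0.1.4 is listed in the submitters' processing notes). The deposited raw counts come from featureCounts, for primary alignments to the reverse strand. The deposited FPKM are made from them, and for 99.98% of 12030 genes compared the length they divide by was the annotated gene span within 1%. The TPM deposited sum to 1000000 in each library.

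Counts were fitted with edgeR 4.0.16 in R 4.3.3 (TMM, quasi-likelihood test) on genes reaching 10 counts in 3 or more libraries, and adjusted by Benjamini-Hochberg over all 12692. The code was tested on simulated counts. A standard error is the absolute log2 fold change divided by the square root of F. P-values cover only the spread between these libraries, which the labels call biological replicates. Gene order came from RefSeq (assembly version 2.0), which matched 14684 of 14748 IDs. No sequences were at hand.

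The members, gene lists and tests were chosen with earlier results of these data known. Named are the 8 genes, 5 flanking genes on each side, the peptide synthetases past the limits, and the 5 genes most like nps6. Genes named beyond this were chosen after their values were seen. DESeq2 1.42.0, limma 3.58.1 (voom), library totals, no count filter, the sequencer as a term, a replicate block and leaving out each library were tried as alternatives.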

Additional observations from a re-analysis of the deposited data

How the results depend on the processing

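All 8 genes of the run stayed past the limits for up-regulation under each of the 12 other fits. Over all genes these fits called between 838 and 1434 up-regulated, against 1262 (9.94% of those tested) with edgeR and TMM. Since the 8 genes were chosen with this contrast known in the same libraries, this says nothing beyond that choice. Of 112 log2 fold changes of the 8 genes under other settings none changed sign, and 15 moved by more than the spread between replicates, with library totals, the sequencer as a term, or the deposited FPKM or TPM. With library totals the median over all genes tested shifted to -0.33, and 838 genes were up- and 1217 down-regulated, against 1262 and 416. With the sequencer as a term 199 were down-regulated. Leaving out each library in turn gave between 0 and 2 down-regulated peptide synthetases against 1, with 2 also for library totals and 0 for the sequencer term. nps12 was called under each of these 12 fits. Samples with the same replicate number did not clearly deviate together (r = 0.033, 0.190 and 0.234 for numbers 1, 2 and 3), and with a replicate block 1245 genes were up- and 432 down-regulated. Depth limits low genes most in poplar ECM, where 0 counts allow up to 0.268 CPM in replicate 3 (3 counts, counting error only).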

Other observations

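The 9 genes that the annotation names as polyketide synthases, a list chosen after its symbols were seen, make the other large class of fungal secondary metabolites. By edgeR's quasi-likelihood test with adjustment over all genes 3 of the 9 were up-regulated in poplar ECM and 0 down-regulated, against 9.94% and 3.28% of all genes tested. Their median log2 fold change was 0.41, against 0.0097 over all genes tested. pks9 (Cenge3:706069) had 17.1, 11.9 and 31.0 FPKM in poplar ECM, against 8.06, 8.19 and 7.25 FPKM in FLM, and was up-regulated by 1.66 on the log2 scale (standard error 0.260; edgeR, adjusted p = 0.00119), a call made under all 12 other fits. pks2 (Cenge3:722607) and pks7 (Cenge3:595886) had 1.18 and 1.25 (adjusted p = 0.0141 and 0.0317, edgeR), and their calls were lost in 4 and 5 of the 12 fits. For pks2 this was with library totals (0.84), with the sequencer as a term (1.48), without FLM replicate 1 (0.93) and without poplar ECM replicate 1 (1.01). For pks7 it was with library totals (0.95), with the sequencer as a term (0.78), and without poplar ECM replicate 3 (0.77), FLM replicate 1 (0.99) or FLM replicate 3 (1.28). pks8 (Cenge3:653071) was the most abundant of them, with 240.6, 197 and 312 FPKM in poplar ECM against 211, 190 and 165 FPKM in FLM, and was not called at 0.74 (adjusted p = 0.0395, edgeR).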
